A study of Drosophila melanogaster with 6 samples.

Results

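Complex I of the mitochondrial respiratory chain (NADH dehydrogenase) was examined through its nuclear genes, taken as every gene whose FlyBase symbol starts with *ND-*. This rule gave 40 of the 17559 genes in the count tables, and it used names only, no measured value. By the human counterpart that RefSeq lists among their synonyms, 7 encode core subunits of the matrix arm, 9 accessory subunits of the matrix arm and 17 accessory subunits of the membrane arm. The other members are *ND-MLRQ*, the counterpart of NDUFA4, and 6 paralogs named after a subunit with an added L.

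Complex I takes electrons from NADH, passes them along a chain of iron-sulfur clusters in its matrix arm to ubiquinone, and pumps protons across the inner mitochondrial membrane with its membrane arm. The pumping core of the membrane arm is encoded in the mitochondrial genome, so that each complex is assembled from products of both genomes. Accessory subunits surround the core and are needed for assembly and stability. Photoreceptors, neurons and muscle, all present in a fly head, are tissues with a high demand for mitochondrial ATP.

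The study modelled a human deletion on chromosome 16 by lowering the fly homologs of its genes with pan-neuronal *Elav-GAL4*. The libraries used here are its 2 control groups, each of 3 pools of 35 to 40 heads of female progeny, which carry no RNAi construct. The Dicer2 25C control was w[1118],Elav-GAL4/w[1118] with 1 copy of UAS-Dicer2, reared at 25°C. The RT control was w[1118],Elav-GAL4/w[1118] without UAS-Dicer2, reared at room temperature. Both came from crosses to the w1118 control stock of the VDRC GD collection, v60000. The methods list an *Elav-GAL4* stock with *UAS-Dicer2* that also carries *mcd8-GFP*, and another with *UAS-Dicer2* that does not. Their RNA sequencing section does not say which gave these heads. The *Elav-GAL4* stock without *UAS-Dicer2* is listed without *mcd8-GFP*. Driver stock, *UAS-Dicer2* and temperature differ together between the groups and cannot be told apart, and the knockdown libraries were not analysed here. Ages of the flies are not given in the sources used here.

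Reads counted on genes numbered between 18651266 and 25183878 per library in the Dicer2 25C control and between 33898008 and 42487803 in the RT control. *Dcr-2*, the gene that *UAS-Dicer2* adds, stood at 506 to 609 CPM (counts per 1000000 counts, scaled by TMM factors) in the Dicer2 25C control and at 55.6 to 61.5 CPM in the RT control, as the labels have it. Neuron, photoreceptor and glia markers were present in all 6 libraries, and the summed level of 8 testis genes did not exceed 2.90 CPM. Several libraries stood apart before any complex I gene was considered. Replicate 3 of the Dicer2 25C control had the highest summed level of 7 photoreceptor markers, 62190 CPM. Replicates 1 and 2 had 48580 and 48940 CPM and the RT libraries 39340 to 40260 CPM. Most of this sum was *ninaE*, at 52730 CPM in replicate 3, against 38490 and 39120 CPM in replicates 1 and 2. Of the 7 markers, replicate 3 had the highest value of its group for 4 and the lowest for 3. The summed muscle markers of replicate 3 were at about the level of the RT control instead of that of its own group. In the RT control, replicate 1 differed most from the others in a chi-square of counts over genes (152.9 and 145.7 per degree of freedom against replicates 2 and 3, which gave 34.5 between them), and its summed fat body markers were at 31570 CPM, where replicates 2 and 3 had 45390 and 44480 CPM. In the same group, *Hsp68*, a heat shock gene, was at 22.7, 112 and 2052 CPM. Replicate 1 of the Dicer2 25C control had 69361668 non-unique alignments, all left uncounted.

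Nuclear complex I genes were abundant in these heads. Of the 40 genes, 31 were among the highest 10% of all tested genes in level per kilobase of exon; the others were *ND-AGGG* and 8 genes that did not pass the filter on low counts, the 6 paralogs, *ND-MNLL* and *ND-B8*. The median of the 32 tested genes over the 6 libraries was 170.5 CPM per kilobase, against 12.3 CPM per kilobase over the 9976 tested genes with a known exon length. The tested genes differed from each other by a ratio of 15.3, from 32.4 CPM per kilobase for *ND-AGGG* to 494 CPM per kilobase for *ND-MLRQ*. They were also short: 31 of the 32 had less exon sequence than the median tested gene, 2078 bases.

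*ND-MLRQ* (BDGP6 chromosome arm 3L, 23339326 to 23345936) was the highest per kilobase. It encodes the counterpart of NDUFA4, which in mammals was first described with complex I and is now assigned to cytochrome oxidase. It was at 313.6, 312.9 and 270.1 CPM in the Dicer2 25C control, against 255.9, 210.5 and 232.7 CPM in the RT control. All 3 Dicer2 25C libraries lay above all 3 RT libraries. Per kilobase its level was 556 ± 46.4 CPM in the Dicer2 25C control and 433 ± 42.2 CPM in the RT control (SD, n = 3 each). *ND-51* (2L, 6060842 to 6062757), the subunit that binds NADH and the flavin, was next. It was at 525.7, 526.8 and 510.4 CPM in the Dicer2 25C control, against 563.1, 542.7 and 542.0 CPM in the RT control. Here the order was the other way round, with every Dicer2 25C library below every RT library, at 328 ± 5.78 and 346 ± 7.53 CPM per kilobase (SD, n = 3 each). *ND-39* (3L, 20492082 to 20497084), the counterpart of the accessory subunit NDUFA9, followed. It was at 427.4, 433.3 and 390.8 CPM in the Dicer2 25C control, against 452.1, 383.6 and 390.0 CPM in the RT control, and the groups overlapped. *ND-39* and the 3 genes next to it in the order, *ND-SGDH*, *ND-49* and *ND-23*, had means between 252 and 258 CPM per kilobase in the Dicer2 25C control and between 225 and 253 CPM per kilobase in the RT control. With SDs of up to 24.1 CPM per kilobase, neighbours in this stretch did not differ beyond their spread.

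The lowest of the 32 was *ND-AGGG* (3L, 24976254 to 24977118), the counterpart of the membrane-arm subunit NDUFB2. It was at 27.97, 26.3 and 24.0 CPM in the Dicer2 25C control, against 26.9, 19.2 and 20.3 CPM in the RT control, so that replicate 1 of the RT control lay within the range of the Dicer2 25C control. *ND-B18* (X, 15063733 to 15064926), the counterpart of NDUFB7, was at 104.7, 107.1 and 89.9 CPM in the Dicer2 25C control, against 87.2, 83.4 and 81.2 CPM in the RT control. *ND-13B* (3L, 10693184 to 10694108), the counterpart of NDUFA5, was at 54.7, 55.9 and 52.3 CPM in the Dicer2 25C control, against 48.0, 49.7 and 48.2 CPM in the RT control. Neither gene overlapped between the groups. Per kilobase *ND-B18* and *ND-13B* were close, at 89.1 ± 8.28 and 91.0 ± 3.12 CPM in the Dicer2 25C control and 74.3 ± 2.68 and 81.4 ± 1.59 CPM in the RT control (SD, n = 3 each), while *ND-AGGG* lay well under both.

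**Figure D1:**
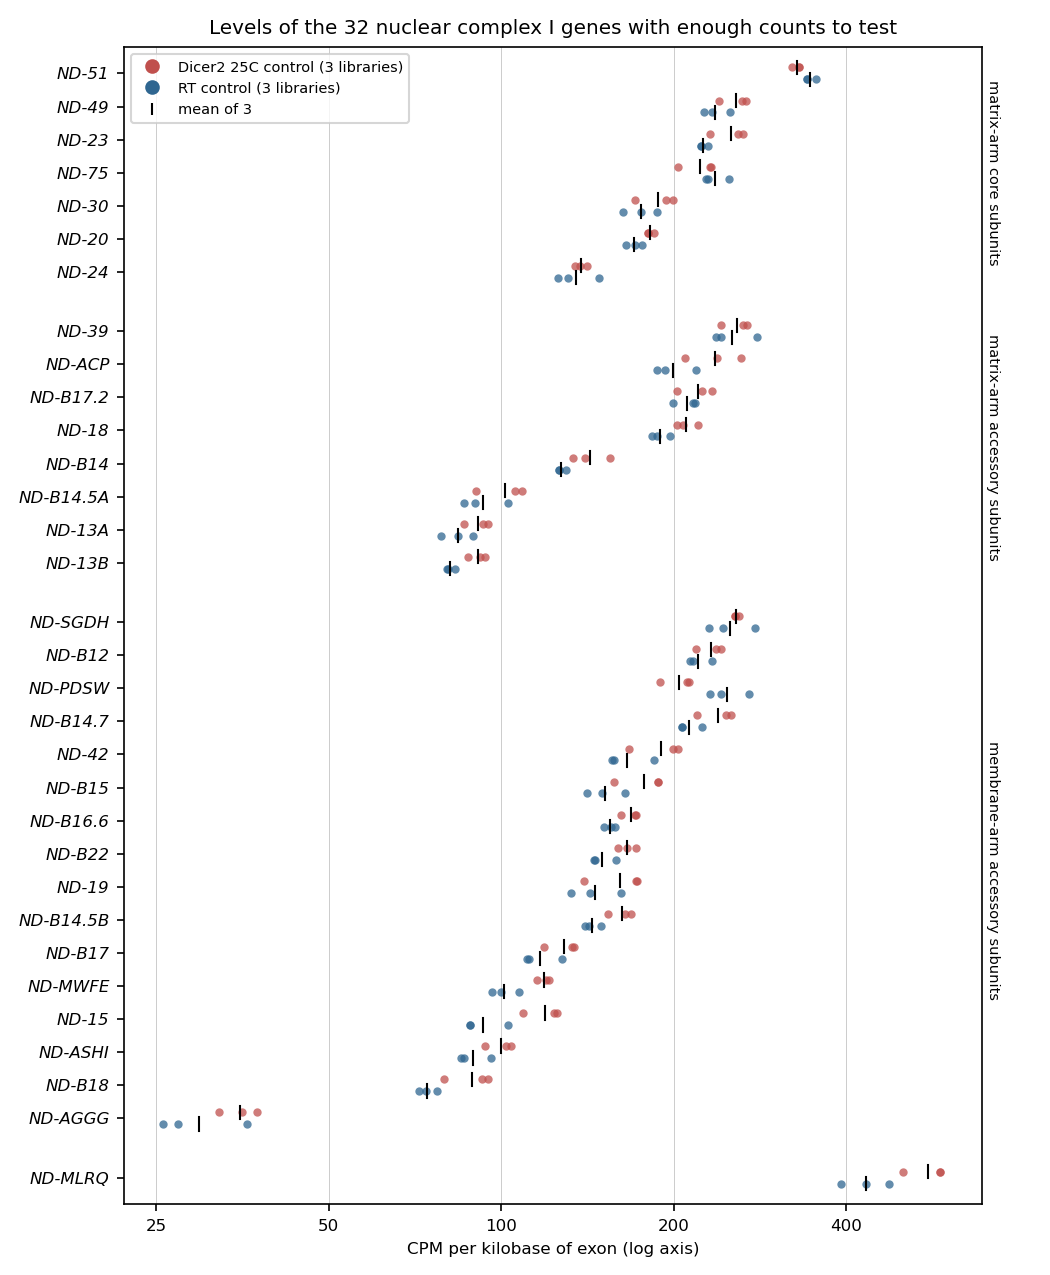
Level of each of the 32 tested genes in CPM per kilobase of exon (log axis), by role; each point is a library, Dicer2 25C control above RT control, and the black tick is the mean of 3. All but 3 genes lie between 81.7 and 255.5 CPM per kilobase on average, with *ND-AGGG* below and *ND-MLRQ* and *ND-51* above, and the spread between genes is far wider than that between groups.

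Differences between the control groups were small and mostly in one direction. Of the 32 tested genes, 29 had a positive log2 fold change (Dicer2 25C control over RT control), against 50.5% of all 10187 tested genes, and their median log2 fold change was 0.15, against 0.00 over all tested genes. No complex I gene was called at an adjusted p under 0.05 with an absolute log2 fold change above 1 in edgeR's quasi-likelihood test, where 2.82% of all tested genes were called. None had an adjusted p under 0.05 at any fold change either, where 10.1% of all tested genes did, and 7 had an unadjusted p under 0.05, against 30.7% of all tested genes. Standard errors of the log2 fold change were between 0.06 and 0.14. The 3 Dicer2 25C libraries lay wholly above the 3 RT libraries for 12 genes (18.0% of all tested genes) and wholly below for 2 (19.5% of all tested genes). In RNA from whole heads, fewer cells of a type and less RNA per cell cannot be told apart.

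The number of complex I genes at an adjusted p under 0.05, at any fold change, depended on single libraries and on the tool. Without replicate 3 of the Dicer2 25C control, 7 complex I genes reached an adjusted p under 0.05 in edgeR's test (18.6% of all tested genes then did), namely *ND-15*, *ND-23*, *ND-B14.5B*, *ND-B15*, *ND-B18*, *ND-MLRQ* and *ND-MWFE*, all higher in the Dicer2 25C control; without replicate 1 of the RT control, *ND-15* and *ND-AGGG* did (11.1% of all tested genes). DESeq2 on all libraries gave 4, *ND-15*, *ND-MLRQ* and *ND-MWFE* higher and *ND-PDSW* lower in the Dicer2 25C control (18.5% of all tested genes). With upper quartile factors there were 4, *ND-15*, *ND-B18*, *ND-MLRQ* and *ND-MWFE*, all higher (11.3% of all tested genes), and with at least 10 counts required in each library *ND-15* alone passed (10.8% of all tested genes). None of these had an absolute log2 fold change above 1.

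The largest differences were those of *ND-MLRQ*, *ND-15* and *ND-PDSW*. *ND-MLRQ*, with the values given above, had a log2 fold change of 0.36 (SE 0.10, adjusted p = 0.074 in edgeR's test), or 1.28-fold. *ND-15* (2L, 114726 to 156030), the counterpart of NDUFS5, a small subunit on the intermembrane-space side, was at 140.5, 141.9 and 124.0 CPM in the Dicer2 25C control, against 116.6, 100.3 and 100.3 CPM in the RT control. The groups did not overlap, and the log2 fold change was 0.36 (SE 0.09, adjusted p = 0.054). *ND-PDSW* (2L, 3466157 to 3467334), the counterpart of NDUFB10, had the largest negative value. It was at 157.0, 155.5 and 139.8 CPM in the Dicer2 25C control, against 199.9, 170.8 and 178.6 CPM in the RT control, again with no overlap (log2 fold change -0.28, SE 0.09, adjusted p = 0.086). *ND-PDSW* and *ND-15* are both membrane-arm accessory subunits, and their differences were opposite in sign. Of the 1135 exon bases of *ND-15*, 180 overlap other genes, nearly all of them *Pus10* on the opposite strand.

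Core subunits of the matrix arm had the smallest median difference of the 3 role groups. None of the 7 passed the test in either direction, and their median log2 fold change was 0.09. *ND-51* had a log2 fold change of -0.08 (SE 0.07, adjusted p = 0.52). *ND-75*, a large iron-sulfur subunit next to it in the electron path, also had -0.08 (SE 0.09, adjusted p = 0.58). *ND-75*, with 2634 exon bases the longest of the tested genes, was at 611.6, 609.6 and 535.9 CPM in the Dicer2 25C control, against 657.5, 600.6 and 604.7 CPM in the RT control, and its groups overlapped. *ND-24*, another subunit of the NADH-oxidizing module, had a log2 fold change of 0.03 (SE 0.08). The subunits nearer to ubiquinone had positive values, *ND-20* 0.09, *ND-30* 0.10, *ND-49* 0.12 and *ND-23* 0.16, with standard errors of 0.07 to 0.09. Their adjusted p-values in edgeR's test were between 0.20 and 0.47, and a difference between parts of the matrix arm was not tested.

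Of the 9 accessory subunits of the matrix arm, 8 were tested and none passed the test in either direction. All 8 log2 fold changes were positive, from 0.03 for *ND-39* to 0.24 for *ND-ACP*, with a median of 0.14. *ND-ACP* encodes the mitochondrial acyl carrier protein, which also serves fatty acid and lipoate synthesis outside the complex. It was at 200.3, 220.4 and 176.4 CPM in the Dicer2 25C control, against 184.2, 157.6 and 162.5 CPM in the RT control, and the groups overlapped (SE 0.11, adjusted p = 0.18). Between these ends lay *ND-B17.2* with 0.06, *ND-13A* with 0.12, *ND-B14.5A* with 0.13, and *ND-13B* and *ND-B14* with 0.16 each, counterparts of NDUFA12, NDUFS6, NDUFA7, NDUFA5 and NDUFA6. The groups did not overlap for *ND-13B* and *ND-B14*. *ND-18*, the counterpart of NDUFS4, which in humans is one of the subunits mutated in Leigh syndrome, was at 159.2, 169.4 and 155.9 CPM in the Dicer2 25C control, against 151.3, 140.5 and 143.8 CPM in the RT control. Its groups did not overlap (log2 fold change 0.15, SE 0.07, adjusted p = 0.17).

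Of the 17 accessory subunits of the membrane arm, 16 were tested, none passed the test in either direction, and 15 had a positive log2 fold change. Their median was 0.17. After *ND-15*, *ND-B18* followed with 0.26 (SE 0.08, adjusted p = 0.090), *ND-AGGG* with 0.24 (SE 0.14, adjusted p = 0.30) and *ND-MWFE* with 0.23 (SE 0.07, adjusted p = 0.068). *ND-MWFE*, the counterpart of NDUFA1, was at 102.4, 101.0 and 97.6 CPM in the Dicer2 25C control, against 84.4, 81.3 and 90.6 CPM in the RT control, without overlap. Exons of *Nrk* cover 128 of its 844 exon bases on the same strand, so that reads there could not be given to it alone. *ND-B16.6*, the counterpart of the subunit also known as GRIM-19, had 0.12 (SE 0.07, adjusted p = 0.27), and *ND-SGDH*, the counterpart of NDUFB5, the smallest of the positive values, 0.04 (SE 0.09). The rest were *ND-B12* with 0.08, *ND-B17* with 0.14, *ND-B22* and *ND-19* with 0.15 each, *ND-ASHI* with 0.16, *ND-B14.7* and *ND-B14.5B* with 0.17 each, *ND-42* with 0.19 and *ND-B15* with 0.23. Of these, *ND-B22*, the counterpart of NDUFB9, and *ND-B14.5B*, the counterpart of NDUFC2, were higher in all 3 Dicer2 25C libraries than in any RT library, as was *ND-B16.6*.

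**Figure D2:**
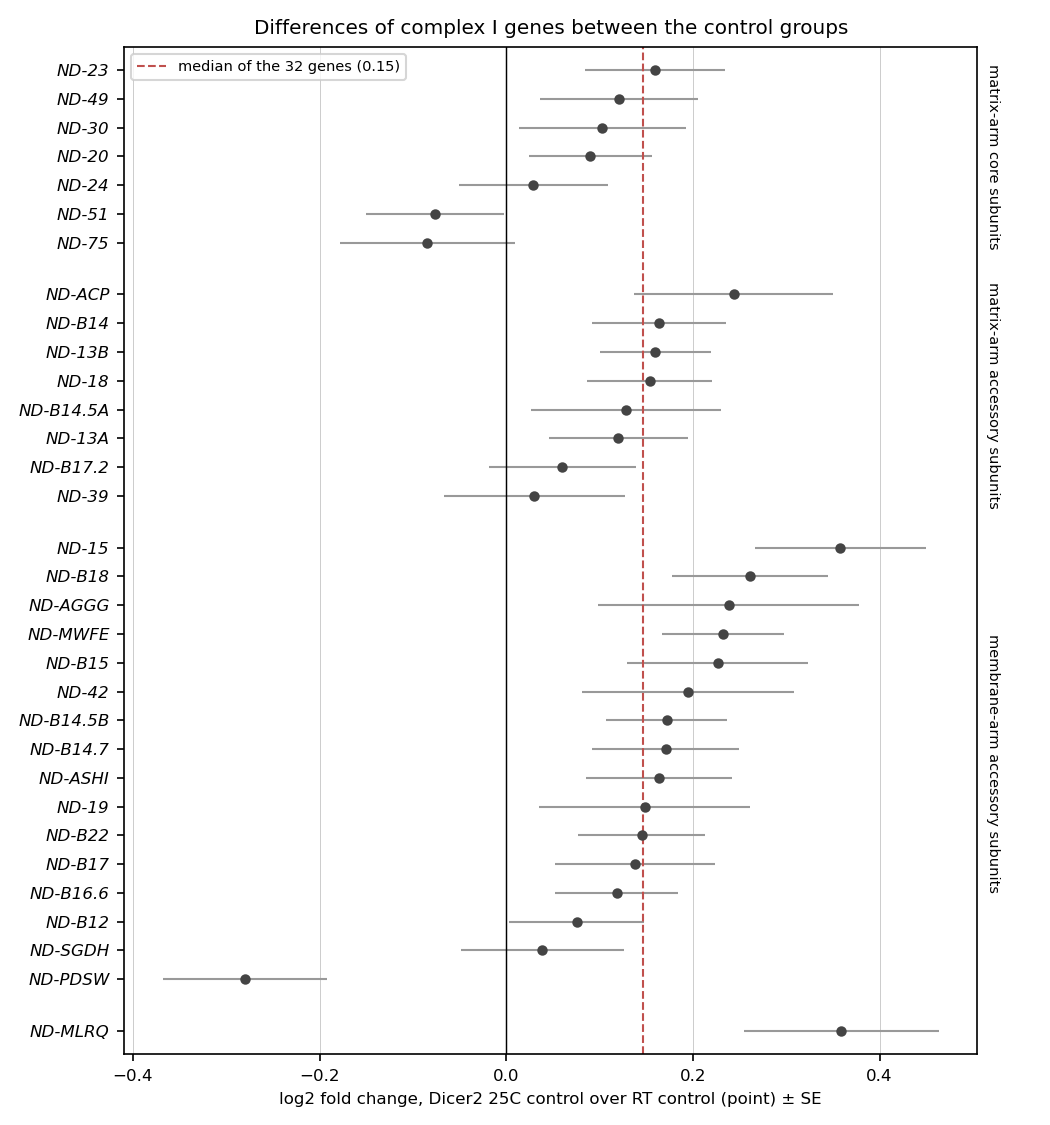
Log2 fold change of each tested gene (Dicer2 25C control over RT control) with its standard error, by role and in order within each role; the dashed line is the median of the 32 genes, 0.15. *ND-PDSW*, *ND-75* and *ND-51* are the 3 genes left of 0, and *ND-MLRQ* and *ND-15* are farthest to the right at 0.36.

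Within each group, most complex I genes had their extremes in the same libraries. In replicate 3 of the Dicer2 25C control, 30 of the 32 genes had the lowest of the group's 3 values, against 38.9% of all tested genes. In the RT control, replicate 1 had the highest of the 3 values for 27 of the 32 genes, against 43.5% of all tested genes, and replicate 2 had the lowest for 25, against 32.6%. Measured from each gene's mean over the 6 libraries on the log2 scale (CPM with 0.5 added), the median complex I gene stood at 0.11, 0.12 and -0.03 in the Dicer2 25C control, against 0.02, -0.12 and -0.09 in the RT control. The medians of 2 libraries, replicate 3 of the Dicer2 25C control and replicate 1 of the RT control, were thus in the opposite order to the groups. The median of all tested genes stayed within 0.01 of 0 in each library. The spread was modest: over the 3 replicates of the Dicer2 25C control the median coefficient of variation was 6.48%, where all tested genes had 9.39%, and over those of the RT control it was 5.99%, where all tested genes had 7.83%. The highest coefficient of variation was that of *ND-19* in the Dicer2 25C control, 11.65%, and that of *ND-AGGG* in the RT control, 18.7%.

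**Figure D3:**
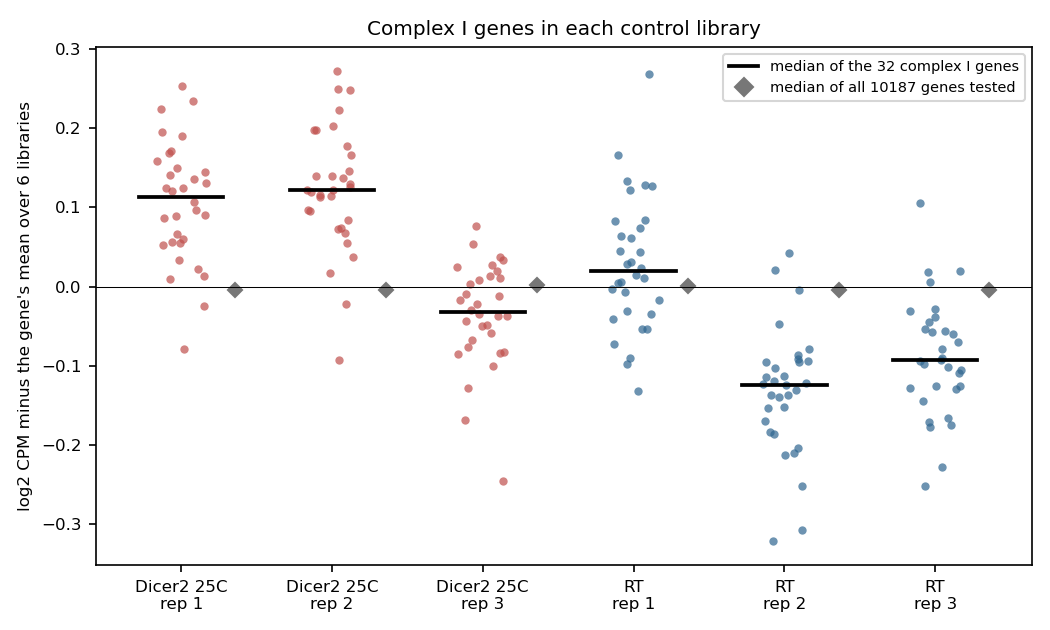
Log2 CPM of each of the 32 genes minus its mean over the 6 libraries, one column of points per library; the bar is their median and the grey diamond the median of all tested genes. Replicate 3 of the Dicer2 25C control (median -0.03) lies under replicate 1 of the RT control (median 0.02), while the other libraries separate by group.

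In the Dicer2 25C control, the library with the lowest complex I level, replicate 3, also had the lowest summed muscle and neuron markers. The summed level of the muscle markers, of which 7 of 8 matched an identifier and 5 were tested, was 11320, 11080 and 5481 CPM in the Dicer2 25C control, against 5323, 6068 and 6074 CPM in the RT control. All 5 tested muscle markers, *Mhc*, *Act88F*, *Act57B*, *Tm2* and *up*, had their lowest Dicer2 25C value in replicate 3, and none passed the test between the groups (log2 fold changes 0.46 to 0.98, lowest adjusted p = 0.11). Of the listed genes of the fibrillar flight muscle of the thorax, *TpnC4* and *fln* did not exceed 0.510 CPM in any library. *Act88F*, also of that muscle, was at 9.39 to 29.9 CPM in the 6 libraries. Summed complex I levels were 6320, 6383 and 5744 CPM in the Dicer2 25C control, against 6138, 5523 and 5657 CPM in the RT control. In the RT control the summed muscle level was lowest in replicate 1, where complex I was highest. Single muscle markers did not share this order. Of the 5 tested, replicate 1 had the highest value of the RT control for 2 and the lowest for 2. *Mhc* was at 2674, 3737 and 3638 CPM and *Act57B* at 1632, 1257 and 1325 CPM in RT replicates 1, 2 and 3. Other tissues differed as well. The summed photoreceptor markers were at 48580 to 62190 CPM in the Dicer2 25C control, against 39340 to 40260 CPM in the RT control, without overlap. Most of the sum was *ninaE*, and 3 of the 7 markers taken singly were higher without overlap (18.0% of all tested genes were). All 7 markers had a positive log2 fold change (0.02 to 0.47, median 0.21) and none passed the test. Summed neuron markers were at 4250, 3996 and 3127 CPM in the Dicer2 25C control, against 3305, 3250 and 3154 CPM in the RT control. *elav*, *nSyb*, *brp* and *Syt1* each had their lowest Dicer2 25C value in replicate 3. In the RT control, *nSyb* and *Syt1* were highest in replicate 1 and *elav* and *brp* in replicate 2. The 4 log2 fold changes were positive (0.10 to 0.36, median 0.14) and none passed the test. The summed glia markers were at 564 to 578 CPM in the Dicer2 25C control, against 562 to 654 CPM in the RT control. The summed fat body markers, *Lsp2* and the yolk protein genes *Yp1*, *Yp2* and *Yp3*, were at 14650 to 23990 CPM in the Dicer2 25C control, against 31570 to 45390 CPM in the RT control, and *Yp3* alone of the 4 passed the test (log2 fold change -1.32, adjusted p = 0.032). The part of these tissues in the complex I values was not tested.

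Median differences of the other respiratory complexes were close to that of complex I, while single genes reached further. The rest of the chain, taken by symbol, gave median log2 fold changes of 0.13 for complex II (5 tested of 8), 0.19 for complex III (9 tested of 11), 0.16 for cytochrome oxidase (12 tested of 16) and 0.20 for ATP synthase (12 tested of 15). Log2 fold changes of single genes ran from 0.01 to 0.37 in complex II, from -0.28 to 0.48 in complex III, from -0.58 to 0.85 in cytochrome oxidase and from 0.02 to 0.98 in ATP synthase, against -0.28 to 0.36 in complex I. None of these genes passed the test in either direction, and 5, 8, 9 and 12 of them had a positive log2 fold change. Replicate 3 of the Dicer2 25C control had the lowest of the group's 3 values for 5, 9, 8 and 11 of them in the same order. Replicate 1 of the RT control had the highest of its group for 8 of 9 complex III genes, 8 of 12 cytochrome oxidase genes and 11 of 12 ATP synthase genes, but for 1 of 5 complex II genes. Complex II is the member of the chain with no subunit encoded in the mitochondrial genome, and whether this bears on its count was not tested. These counts come from the same libraries and comparison as those of complex I and are a description.

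**Figure D4:**
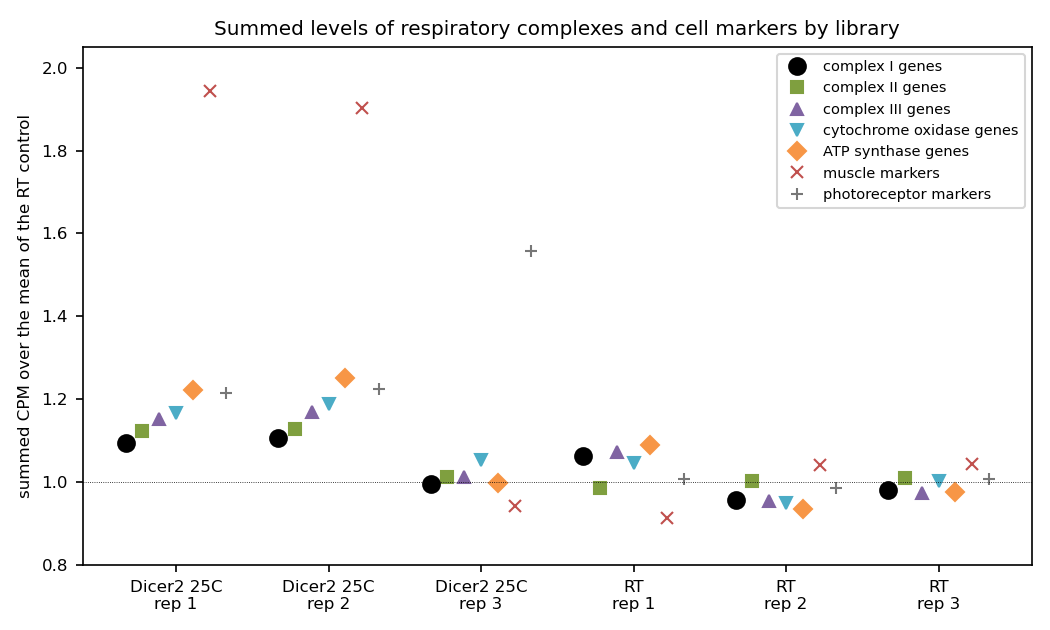
Summed CPM of the genes of each respiratory complex and of muscle and photoreceptor markers in each library, divided by the mean of the RT control. Complex I (black) lies between 0.957 and 1.11 in every library, while the muscle markers are at 1.94, 1.90 and 0.941 in replicates 1, 2 and 3 of the Dicer2 25C control.

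The 6 paralogs were at or near 0 in heads. *ND-51L2* had 9, 2 and 2 counts in the Dicer2 25C control, against 3, 6 and 4 in the RT control. *ND-51L1* had 7, 2 and 4 counts in the Dicer2 25C control, against 8, 1 and 5 in the RT control. The parent gene *ND-51* had 94564 counts over the 6 libraries, where the paralogs had 26 and 27. *ND-24L* had 0, 1 and 0 counts in the Dicer2 25C control, against 0, 1 and 0 in the RT control, and *ND-B14.5AL* had 0, 2 and 0, against 0, 0 and 1. *ND-20L* had 1, 0 and 0 counts in the Dicer2 25C control and none in the RT control, where 3 counts correspond to 0.0711 to 0.0916 CPM. Only *ND-49L* was separated by group, with 1, 0 and 0 counts in the Dicer2 25C control, against 9, 4 and 6 counts in the deeper RT control. That is 0.0175 ± 0.0302 CPM in the Dicer2 25C control and 0.184 ± 0.0900 CPM in the RT control (SD, n = 3 each). The 6 paralogs were under the filter and entered only the fit with no filter, where none had an adjusted p under 0.05 (the lowest was 0.11, of *ND-49L*). The 8 testis genes used as markers of male germ cells were likewise near 0, with *betaTub85D* the highest at 1.36 to 1.76 CPM. In the annotation, *ND-51L1*, *ND-51L2*, *ND-24L* and *ND-B14.5AL* have a single exon block, where *ND-51*, *ND-24* and *ND-B14.5A* have 4, 4 and 2, and *ND-49L* has 2, where *ND-49* has 7. *ND-20L* has 2 blocks, where *ND-20* has 1. Reads that align equally well to a paralog and its parent would be lost to both, so the paralog counts are uncertain.

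*ND-MNLL* (X, 7893053 to 7893798), the counterpart of NDUFB1, had 0 counts in all 6 libraries. In the BDGP6.54 annotation all 720 of its exon bases are shared with *CG45089* on the same strand, and reads that fall on both genes are counted for neither. Among the 319 genes of at least 200 exon bases whose exons are wholly covered on the same strand, 297 had no counts. Of the 116 genes wholly covered on the opposite strand only, 7 had no counts, so the reads appear to have been assigned by strand. The level of *ND-MNLL* was therefore not measured. *ND-B8* (2L, 4454626 to 4455207), the counterpart of NDUFA2, had 0 counts in each Dicer2 25C library, against 4, 3 and 0 counts in the RT control. Another gene, *Gs1l*, overlaps 71 of its 460 exon bases, on the opposite strand, and the cause of its low count was not tested. A count of 0 allows up to 0.118 to 0.157 CPM in the Dicer2 25C libraries, counting error only.

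The mitochondrially encoded subunits could not be compared. *mt:ND1*, *mt:ND2*, *mt:ND3*, *mt:ND4*, *mt:ND4L*, *mt:ND5* and *mt:ND6* were listed at 0 in all 6 libraries, as were all 37 genes of the mitochondrial genome in the tables. *NP15.6*, the counterpart of the subunit NDUFB11, whose symbol lacks the prefix, was at 160.2, 164.5 and 147.1 CPM in the Dicer2 25C control, against 161.5, 141.5 and 156.7 CPM in the RT control. Its groups overlapped (log2 fold change 0.04, SE 0.08, adjusted p = 0.79).

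Assembly factors and regulators of mitochondrial biogenesis did not pass the test in either direction. The 5 assembly factors, *CIA30*, *ECSIT*, *sicily*, *CG5569* and *CG11722*, had mean levels between 10.8 and 24.7 CPM in the Dicer2 25C control and between 11.6 and 25.3 CPM in the RT control. Their log2 fold changes were between -0.11 and 0.12, with 2 positive and 3 negative. Among the regulators, *srl*, the fly counterpart of the PGC-1 coactivators, was at 13.1, 14.4 and 15.1 CPM in the Dicer2 25C control, against 15.9, 21.0 and 21.9 CPM in the RT control. It was lower in every Dicer2 25C library, opposite in sign to most subunits (log2 fold change -0.47, SE 0.13, adjusted p = 0.073). Its adjusted p was 0.030 with DESeq2 and, in edgeR's test, 0.12 with upper quartile factors. Without single libraries it was between 0.016 (without replicate 1 of the RT control) and 0.20 in edgeR's test. *TFAM*, which packages and transcribes the mitochondrial genome, had a log2 fold change of -0.14 (SE 0.07, adjusted p = 0.22), *Ets97D*, the counterpart of a subunit of nuclear respiratory factor 2, -0.05 (SE 0.11), and *ewg*, the counterpart of nuclear respiratory factor 1, 0.01 (SE 0.07).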

How the data were processed

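Reads were single-end, 100 bases long, from a stranded poly(A) library kit. Per the labels, the files the authors deposited hold raw read counts, 1 file per library, made with Trimmomatic 0.36, TopHat2 2.1.0 and HTSeq 0.6.1. HTSeq's tallies of unassigned reads were left out (reads in no gene 3.16% to 4.76%, ambiguous reads 2.36% to 3.62%, of counted plus these reads). Names, coordinates and exon lengths came from the BDGP6.54 annotation, which matched 17253 of 17559 identifiers; the authors' release of the annotation is another of the same assembly.

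Counts were fitted in edgeR 4.0.16 (R 4.3.3) with filterByExpr, TMM factors and the quasi-likelihood test on the group, p-values adjusted over all tested genes after Benjamini and Hochberg, and called at an adjusted p under 0.05 with an absolute log2 fold change above 1. The fit was tested on simulated data with known changes. Standard errors were derived from the quasi-likelihood test, as the absolute log2 fold change divided by the square root of its F statistic. Level per length is CPM divided by exon length. 3 counts correspond to 0.0711 to 0.157 CPM, and intervals and limits cover counting error only. The methods call the pools biological replicates, but no source says that they came from separate crosses, so p-values measure the spread between these pools. Values were given in every library for members with an adjusted p under 0.05, the 3 highest and 3 lowest tested per kilobase, the paralogs, the 3 largest differences and NP15.6; *ND-75*, *ND-ACP*, *ND-18*, *ND-MWFE*, *ND-MNLL*, *ND-B8* and *srl* were added after their values were seen. The members and lists were chosen with earlier results of these data known. Alternatives were RLE and upper quartile factors, DESeq2 1.42.0, the likelihood ratio test, no filter, a minimum of 10 counts in every library, a replicate block, each library left out, and longest transcripts for length.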

Additional observations from a re-analysis of the deposited data

How the results depend on the processing

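No complex I gene was called with an absolute log2 fold change above 1 under any alternative, and their median log2 fold change, 0.15, was 0.20 with upper quartile factors, which moved the median of all tested genes to 0.06, and 0.12 with no filter, where 39 members entered. Without single libraries it was between 0.11 and 0.19, with a positive value for 26 to 29 of the 32 genes. Complex I genes at an adjusted p under 0.05 numbered 4 with upper quartile factors, 4 with DESeq2 and 1 with at least 10 counts in every library (*ND-15*), and between 0 and 7 without single libraries. All genes called numbered 287, against 437 with DESeq2, 495 with the likelihood ratio test and 33 to 438 without single libraries; at an adjusted p under 0.05 they numbered 1030, against 1889 with DESeq2 and 44 to 1944 without single libraries. The replicate numbers are not shared sources by the labels, and same-numbered libraries did not deviate together (r = -0.08, 0.00 and 0.01); with the replicate block, 91 genes were called, 172 had an adjusted p under 0.05 and no complex I gene did. Signs turned for values near 0. *CG5569* was at 0.0426, *CIA30* at 0.0191 and *Ets97D* at 0.00483 with upper quartile factors, and *ND-24* at -0.000538 and *ewg* at -0.0228 with no filter. Without single libraries *ND-39* was between -0.0152 and 0.108, *ND-SGDH* between -0.0194 and 0.117, *ND-24* between -0.021 and 0.1005, *NP15.6* between -0.0183 and 0.0838, *CIA30* between -0.0975 and 0.0101, *CG5569* between -0.0692 and 0.0545, *Ets97D* between -0.125 and 0.0434 and *ewg* between -0.0451 and 0.0404. The cause was not tested. With the longest transcript in place of all exons, no tested gene moved more than 5 places in level, and *ND-B12* passed *ND-39*; *ND-B18*, at 97.8 in place of 81.7 CPM per kilobase, left the 3 lowest, and *ND-13A* joined them.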
